A study of Saccharomyces cerevisiae with 10 samples.

Results

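With HTL1 transcribed from a galactose promoter, a budding yeast strain lacking the chromosomal HTL1 gene was set against its wild type (WT) counterpart, and 6061 genes reached the level set for description in at least 1 of the libraries. The htl1Δ strain carried GALpr-HTL1 and was cultured in YPGR, read here as rich medium with galactose and raffinose. The WT strain also carried GALpr-HTL1 and was cultured in the same medium. Both were Saccharomyces cerevisiae in the S288C background, segregants of a heterozygous diploid, brought to saturation in YPGR, washed and then held in logarithmic growth in YPGR for 10 generations. The series holds 10 libraries of polyadenylated RNA, 4 of them from this experiment 2, and each strain and medium has 1 library. Because each side is 1 library, no test of the deletion was possible, and sizes of difference are given as descriptions.

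Genes were taken from the table that compares the YPGR libraries. Of its 6931 rows, 6816 name a single gene, and 6061 of these passed with status OK from the authors and 5 FPKM or more (sequenced fragments corrected for transcript length and sequencing depth) in 1 of the libraries. HES1 lay just outside the limit, with 4.98 FPKM in htl1Δ and 4.16 FPKM in WT. Just inside the limit, YJL182C had 5.02 FPKM in htl1Δ and 3.29 FPKM in WT. The ratio used throughout is the log2 of (FPKM + 1) in htl1Δ over (FPKM + 1) in WT, so a positive value means higher in htl1Δ and 1 means 2-fold.

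Htl1 is a small subunit of RSC, an essential complex that slides and evicts nucleosomes and keeps many promoters open. Within RSC it sits in a fungal-specific module with Npl6, Ldb7 and the zinc-cluster proteins Rsc3 and Rsc30, and Rsc3 recognises short CG-rich DNA with a CGCGC core. Galactose acts through the activator Gal4, which binds paired CGG triplets upstream of the GAL genes once the repressor Gal80 is relieved by Gal3. Cells with a GAL promoter driving HTL1 can therefore make the subunit in galactose whether or not the chromosomal copy is present.

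The stretches of genome the results turn on are shown in the order in which they come up, from the R64 reference of RefSeq, which has the coordinates of the tables' build sacCer3. The first lies between the divergent genes MAK31 and HTL1, chrIII:155097-155319, read on the plus strand, in which no base is in capitals because neither strand holds CGCGC.
MAK31-HTL1 intergenic: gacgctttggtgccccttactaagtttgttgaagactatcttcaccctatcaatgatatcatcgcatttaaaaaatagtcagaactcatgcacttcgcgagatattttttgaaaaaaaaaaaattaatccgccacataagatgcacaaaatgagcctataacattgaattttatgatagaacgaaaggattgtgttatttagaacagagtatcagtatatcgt
The second holds the Gal4 matches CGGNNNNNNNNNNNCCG (in capitals) between GAL10 and GAL1, chrII:278558-278631, plus strand. The labels do not name the GAL promoter of the GALpr construct.
GAL10-GAL1 stretch: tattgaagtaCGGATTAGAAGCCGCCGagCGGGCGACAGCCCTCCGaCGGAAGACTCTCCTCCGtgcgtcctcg
The third is the 300 bases before the FIT2 start codon, chrXV:1059231-1059530, plus strand, with matches to GCACCC, the core bound by the iron regulator Aft1, in capitals.
FIT2 upstream: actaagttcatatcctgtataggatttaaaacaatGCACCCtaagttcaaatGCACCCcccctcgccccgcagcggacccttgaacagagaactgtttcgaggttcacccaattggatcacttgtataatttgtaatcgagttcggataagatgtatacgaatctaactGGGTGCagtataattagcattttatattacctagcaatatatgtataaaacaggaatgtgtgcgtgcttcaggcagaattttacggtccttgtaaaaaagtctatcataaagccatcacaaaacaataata
The last is the 300 bases before the HSP12 start codon, chrVI:106956-107255, plus strand, with matches to CCCCT, the stress response element bound by Msn2 and Msn4, in capitals.
HSP12 upstream: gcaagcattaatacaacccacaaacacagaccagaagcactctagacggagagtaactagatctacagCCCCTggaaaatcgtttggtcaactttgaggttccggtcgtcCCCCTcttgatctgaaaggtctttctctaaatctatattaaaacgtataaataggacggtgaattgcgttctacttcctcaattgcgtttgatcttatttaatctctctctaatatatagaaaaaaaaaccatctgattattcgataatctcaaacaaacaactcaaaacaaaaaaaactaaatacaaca

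Before the results, the libraries were set against their labels. HTL1 transcript cannot check the deletion here, since the construct supplies it in both strains. Genes that mark mating type showed both YPGR libraries to be of the alpha type. STE3, the receptor for a-factor, had 173 FPKM in htl1Δ and 219 FPKM in WT, and STE2, the receptor for alpha-factor, had 6.73 FPKM in htl1Δ and 6.37 FPKM in WT. The htl1Δ library of the YPD pair instead had STE2 at 575 FPKM and STE3 at 4.48 FPKM, while its WT partner had STE2 at 6.29 FPKM and STE3 at 446 FPKM. The experiment 1 pair was split in the same way, where STE2 had 558 FPKM in htl1Δ and 6.60 FPKM in WT. The marker genes MET17 and LEU2 were listed at 0 in both YPGR libraries, and LYS2 had 0.110 FPKM in htl1Δ and 0.022 FPKM in WT. The YPGR pair is thus matched in mating type and in these markers. MET17 in the YPD pair had 145 FPKM in htl1Δ and was listed at 0 in WT, and LYS2 had 31.7 FPKM in htl1Δ and was listed at 0 in WT. In the experiment 1 pair MET17 was listed at 0 in htl1Δ and had 155 FPKM in WT, and LYS2 had 0.052 FPKM in htl1Δ and 27.9 FPKM in WT. The YPD and experiment 1 pairs, cited below, are therefore matched neither in mating type nor in these markers, and the htl1Δ libraries of YPGR and YPD differ from each other in both. These differences were not separated from those of the deletion or the medium.

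HTL1 itself was abundant in both strains. It had 2782 FPKM in htl1Δ and 2973 FPKM in WT, a ratio of -0.10. In YPD, where GAL promoters are repressed, HTL1 had 232 FPKM in htl1Δ and 555 FPKM in WT. In experiment 1, whose labels name no GALpr-HTL1, it had 2.09 FPKM in htl1Δ and 293 FPKM in WT. The levels of the YPGR pair were therefore close to each other and above those of the other 4 libraries named here. In bulk cultures, fewer cells making an RNA and less of it per cell cannot be told apart.

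The GAL genes were likewise high in both strains and close to equal. GAL1, the galactokinase, had 7601 FPKM in htl1Δ and 6950 FPKM in WT, against 11.6 FPKM in htl1Δ and 9.35 FPKM in WT in the YPD pair. GAL7, the uridylyltransferase, had 4313 FPKM in htl1Δ and 4358 FPKM in WT. GAL10, the epimerase, had 3017 FPKM in htl1Δ and 2682 FPKM in WT, and GAL2, the galactose permease, had 1883 FPKM in htl1Δ and 1636 FPKM in WT. The 4 structural genes had a median ratio of 0.15, running from -0.01 to 0.20. The regulators differed by less: GAL3, the galactose sensor, had 141 FPKM in htl1Δ and 140 FPKM in WT, the repressor GAL80 had 219 FPKM in htl1Δ and 209 FPKM in WT, and the activator GAL4 had 26.6 FPKM in htl1Δ and 24.8 FPKM in WT. The Gal4 motif occurs 3 times in the printed 74 bases, a stretch that was cut around these matches and so had to hold them. Of the 74-base windows directly upstream of 6001 protein-coding genes, 0.117% hold it on either strand. Those windows were placed by start codons and not by matches, so this share does not measure how rare the stretch is. Such matches describe letters and are not taken as bound sites.

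The other subunits of RSC were present at near-equal levels. In the Htl1 module, NPL6 had 91.6 FPKM in htl1Δ and 92.5 FPKM in WT, LDB7 had 202 FPKM in htl1Δ and 222 FPKM in WT, RSC3 had 25.2 FPKM in htl1Δ and 24.3 FPKM in WT, and RSC30 had 21.2 FPKM in htl1Δ and 18.3 FPKM in WT. RSC30 had the highest ratio of all RSC genes measured, 0.21. Of the 9 core genes, 5 had ratios above 0 and 4 below, from -0.14 for RSC9 to 0.12 for RSC1, and their median was 0.04, or -0.01 once each ratio was centred on genes of similar length. STH1, the ATPase of the complex, had 41.7 FPKM in htl1Δ and 38.6 FPKM in WT. The related remodeller SWI/SNF had 7 of 9 genes above 0 with a median of 0.13, highest for SWI1 with 11.6 FPKM in htl1Δ and 8.37 FPKM in WT.

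**Figure D1:**
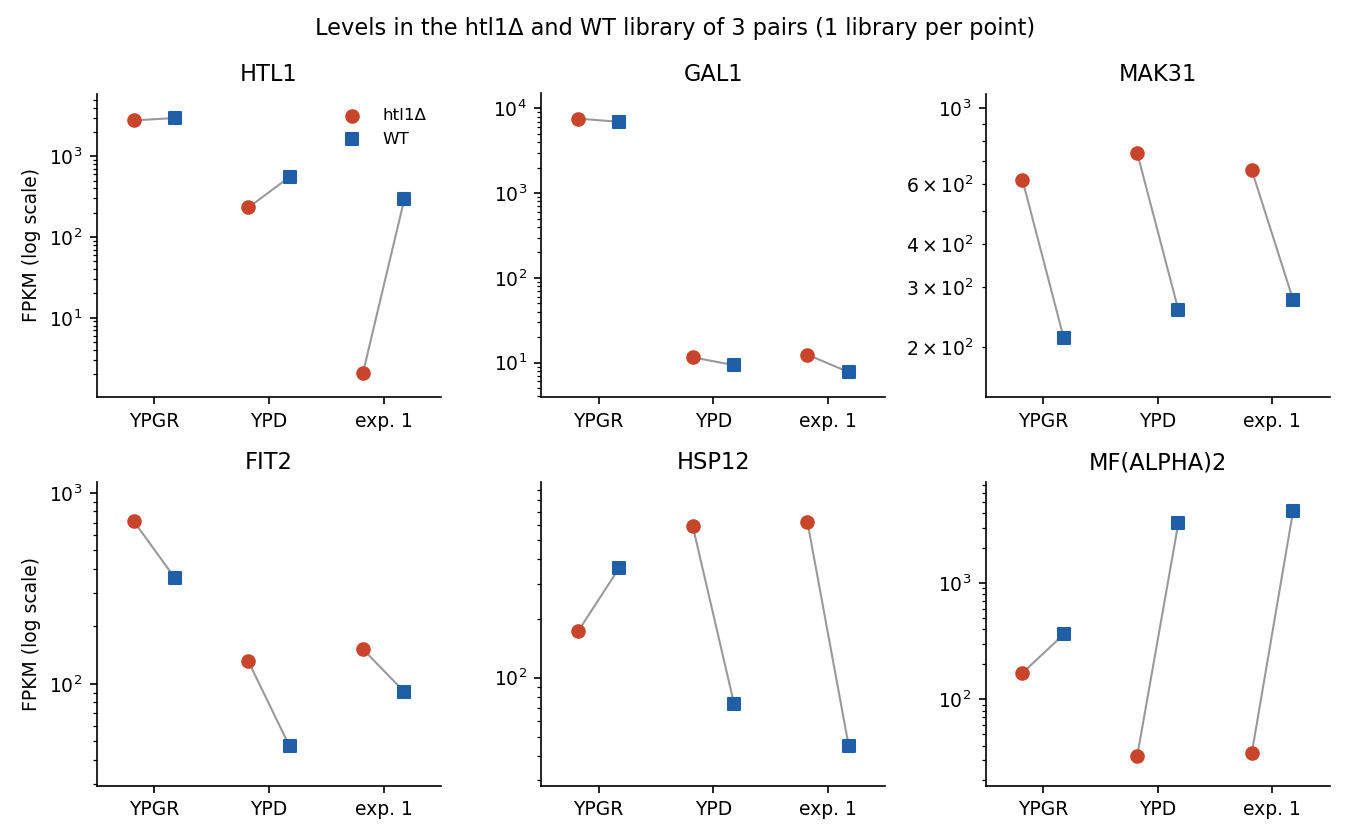
FPKM on a log scale of 6 genes in the htl1Δ library (circles, left) and the WT library (squares, right) of the YPGR pair, the YPD pair and the experiment 1 pair, with 1 library per point. HTL1 and GAL1 were high in both YPGR libraries, MAK31 and FIT2 were higher in htl1Δ in each pair, and HSP12 was lower in htl1Δ in YPGR and higher in htl1Δ in the other pairs.

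The neighbour that shares the upstream region with HTL1 in the reference genome kept a difference between the strains. The labels give neither the site of GALpr-HTL1 nor whether it is integrated, so what lies beside this gene in each strain is not known. MAK31 (YCR020C-A, chrIII:154830-155096, minus strand), a non-catalytic subunit of the NatC amino-terminal acetyltransferase, had 617 FPKM in htl1Δ and 212 FPKM in WT, a ratio of 1.53. In the YPD pair it had 742 FPKM in htl1Δ and 257 FPKM in WT, a ratio of 1.53, and in the experiment 1 pair 659 FPKM in htl1Δ and 275 FPKM in WT, a ratio of 1.26. MAK31 was thus higher in htl1Δ in each of the 3 pairs, at HTL1 levels in htl1Δ that ran from 2.09 to 2782 FPKM. How many other genes were higher in htl1Δ in all 3 pairs was not counted. In the authors' deposited table its p-value in the YPGR pair was 5e-05, the smallest listed, with a q-value of 0.0632. MAK31 is 267 bp long, below the 300 bp set here as the lower limit for recovering fragment numbers, so no counting interval was computed for its ratio.

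Other genes around HTL1 did not repeat that pattern in YPGR. PET18, next beyond MAK31, had 82.3 FPKM in htl1Δ and 115 FPKM in WT. In the YPD pair it instead had 51.1 FPKM in htl1Δ and 17.8 FPKM in WT, and in the experiment 1 pair 39.9 FPKM in htl1Δ and 15.5 FPKM in WT. HSP30, on the far side of HTL1 and a negative regulator of the plasma membrane proton pump, had 1150 FPKM in htl1Δ and 1024 FPKM in WT. In the YPD pair HSP30 had 426 FPKM in htl1Δ and 243 FPKM in WT, and in the experiment 1 pair 665 FPKM in htl1Δ and 212 FPKM in WT. Both flanking genes were thus higher in htl1Δ in glucose medium, PET18 was lower in htl1Δ in YPGR, and MAK31 alone of the 10 nearest neighbours was at least 2-fold different in YPGR. MAK32 had 46.1 FPKM in htl1Δ and 44.3 FPKM in WT. The CGCGC core is absent from the 223 bases between MAK31 and HTL1, as from most windows of that size: 8.47% of those upstream of protein-coding genes hold it on either strand.

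Across the genome the libraries were close. The median ratio of all 6061 genes was -0.00 and 94.8% lay within 0.5 of 0. By the 2-fold rule 44 genes were higher in htl1Δ (0.726%) and 58 were lower (0.957%), together 102 or 1.68% of those measured. Most of these were rows that are hard to measure. Among 4855 genes that RefSeq places at the same coordinates and that are at least 300 bp long, called annotated genes below, the rule found 9 higher in htl1Δ (0.185%) and 7 lower (0.144%), together 16 or 0.33%. Among the other 1206 rows the share was 7.13%, 86 rows, of which 54 have no entry in the RefSeq table used, 30 are shorter than 300 bp and 2 have other coordinates there. Of these 86, 39 share their span with another row and 22 are listed at 0 in 1 of the libraries. The SD of the ratio was 0.19 over annotated genes and 0.97 over the rest.

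The spread between the YPGR libraries was narrower than in the other pairs of htl1Δ and WT. The SD over annotated genes was 0.51 in the YPD pair and 0.56 in the experiment 1 pair, where 204 of 4876 genes (4.18%) and 249 of 4846 genes (5.14%) passed 2-fold in either direction. In the authors' deposited table no gene was called in the YPGR pair, the smallest q-value being 0.0632, while 42 (0.691%) were called in the YPD pair and 32 (0.529%) in the experiment 1 pair. At an unadjusted p under 0.05 in that table stood 75 of the 6061 genes, 1.24%. These Cuffdiff p-values compare single libraries and not strains.

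**Figure D2:**
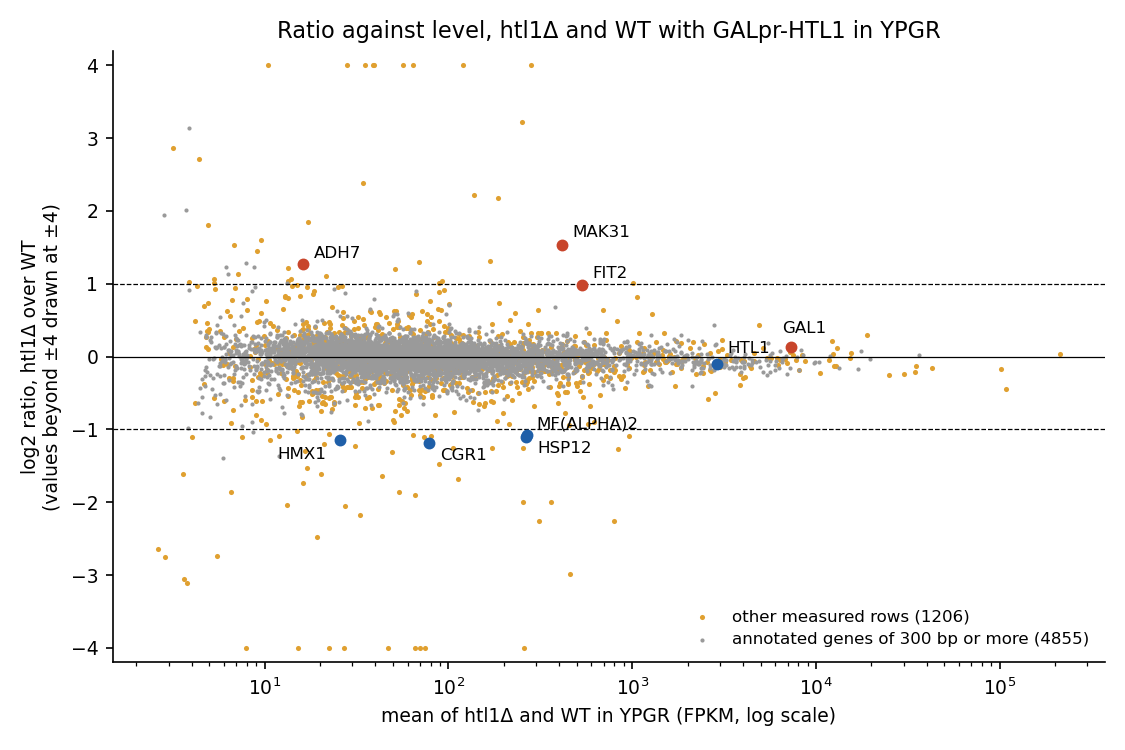
Log2 ratio of htl1Δ over WT in YPGR against the mean FPKM of both libraries (log scale), for 4855 annotated genes (grey) and 1206 other measured rows (yellow), with named genes in red where higher in htl1Δ and blue where lower. Dashed lines mark 2-fold; 98.2% of annotated genes lie within 0.5 of 0, and most points beyond the dashed lines are yellow.

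The rows with the most extreme ratios illustrate that split. Of the 10 highest and the 10 lowest rows of at least 300 bp and at least 20 FPKM, 8 and 10 share their span with another gene. YOR161W-A, within the span of PNS1, had 565 FPKM in htl1Δ and was listed at 0 in WT. YGR068W-A, in the span of ART5, was listed at 0 in htl1Δ and had 148 FPKM in WT, and snR24, a small nucleolar RNA inside ASC1, had 107 FPKM in htl1Δ and 517 FPKM in WT. The host genes did not follow: PNS1, ART5 and ASC1 had ratios of 0.01, -0.05 and -0.09. Reads of overlapping genes cannot be told apart without knowing whether strand was kept, which no label gives. The only annotated genes among those 20 rows were ADH7 and FIT2.

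Fragment numbers behind the annotated genes were recovered by fitting the value of 1 fragment so that FPKM of low genes fall on whole multiples of it. With the best fit, 99.0% of low values in htl1Δ and 98.9% in WT were whole to within 0.1. The fit was chosen to make this share highest, so the share is not a separate check of the recovery. The recovered fragments sum to 8075471 in htl1Δ and 10011390 in WT. At 5 FPKM a 1000 bp gene has 36.2 fragments in htl1Δ and 45.1 in WT. The 95% intervals below are exact binomial intervals on these fragments, and they cover counting error only, not the variation between cultures. For 12 of the 16 annotated genes the interval of the FPKM ratio lies on one side of 1, and for 4 it includes 1. These 16 were picked out of 4855 by the same values that give the intervals, and the intervals make no allowance for that choice. They therefore show how many fragments a ratio rests on and are not support for a difference.

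**Figure D3:**
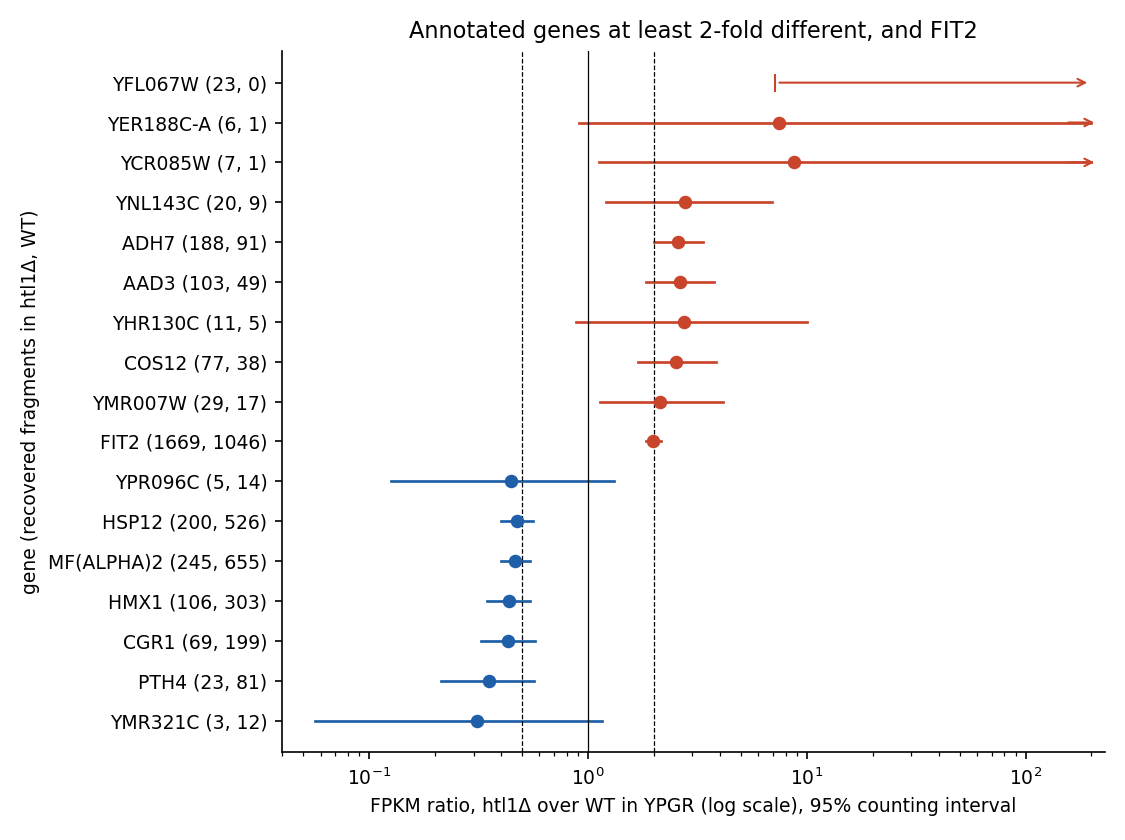
FPKM ratio of htl1Δ over WT in YPGR (log scale) for the 16 annotated genes at least 2-fold different and for FIT2, with 95% counting intervals and, in brackets, the recovered fragments in htl1Δ and then WT. YFL067W has no fragment in WT and is drawn as a lower limit. Dashed lines mark 2-fold, and the intervals of YER188C-A, YHR130C, YPR096C and YMR321C cross 1. The 16 genes were picked by the same values that give the intervals.

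Genes near chromosome ends were prominent among those higher in htl1Δ. ADH7 (chrIII:309070-310155), an NADPH-dependent alcohol dehydrogenase, had 23.4 FPKM in htl1Δ and 9.08 FPKM in WT, from 188 and 91 fragments, a 2.58-fold ratio with an interval of 2.00 to 3.35. AAD3 (chrIII:313890-314981), a putative aryl-alcohol dehydrogenase, had 12.7 FPKM in htl1Δ and 4.86 FPKM in WT, from 103 and 49 fragments, with an interval of 1.85 to 3.76. RDS1, a zinc-cluster transcription factor that lies between them, had 12.0 FPKM in htl1Δ and 5.67 FPKM in WT, a ratio of 0.96. So 3 genes in a row at the right end of chromosome III, the last of them 1.64 kb from the end, were about 2-fold or more higher in htl1Δ. In the YPD pair the same 3 were also higher, ADH7 having 14.0 FPKM in htl1Δ and 7.10 FPKM in WT, RDS1 having 12.1 FPKM in htl1Δ and 5.94 FPKM in WT, and AAD3 having 18.6 FPKM in htl1Δ and 9.56 FPKM in WT. In the experiment 1 pair ADH7 had 13.6 FPKM in htl1Δ and 14.8 FPKM in WT, and AAD3 had 17.3 FPKM in htl1Δ and 13.7 FPKM in WT. AAD3 shares 85.7% identity over 1026 bp with a stretch of chromosome VI, and RDS1 97.7% over 511 bp with a stretch of chromosome XV, so reads could be split between these copies.

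Other ends gave single genes. YFL067W (chrVI:836-1363), of unknown function, had 7.79 FPKM in htl1Δ, from 23 fragments, and was listed at 0 in WT; against 3 fragments in WT, 0.817 FPKM, its level was 9.54-fold higher, and the lower limit of its counting interval was 7.17-fold. A similar stretch of chromosome V aligns to it over 576 bp. COS12 (chrVII:2790-3932), of the subtelomeric COS family of membrane proteins, had 8.998 FPKM in htl1Δ and 3.56 FPKM in WT, from 77 and 38 fragments. IMD2, an IMP dehydrogenase of guanine nucleotide synthesis 6.68 kb from an end of chromosome VIII, had 31.6 FPKM in htl1Δ and 16.2 FPKM in WT, a ratio of 0.92, but 96.3% identity over its length to a copy on chromosome I. YER188C-A rests on 6 fragments in htl1Δ and 1 in WT, and is 95.7% identical over its length to a stretch of chromosome VIII. YMR321C was lower in htl1Δ, with 3 fragments in htl1Δ and 12 in WT, and is 99.4% identical to a stretch of chromosome XVI.

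Over all annotated genes, the difference thinned out away from the ends. Within 5 kb of an end, 3 of 11 genes passed 2-fold on the htl1Δ side and the median ratio was 0.23. Of 27 genes from 5 to 10 kb, 2 were higher and 1 lower, with a median of 0.09, and of 32 from 10 to 15 kb none was 2-fold different, with a median of 0.02. Together 5 of 70 genes within 15 kb, 7.14%, were at least 2-fold higher, beside 0.185% of all annotated genes. Level went with this count: 4 of the 5, all but ADH7, had a mean of at most 10 FPKM. At that level 4 of 22 genes within 15 kb were higher, 18.2%, beside 3 of 167 farther away, 1.80%. Above it 1 of 48 within 15 kb was higher, beside 1 of 4618 farther away. Among the 4380 genes more than 50 kb from an end, 4 were higher and 6 lower. The medians in the YPD pair were 0.06 within 5 kb, 0.34 from 5 to 10 kb and 0.20 from 10 to 15 kb, and 15 of the 63 genes of this set measured there within 15 kb were at least 2-fold higher in htl1Δ. For the experiment 1 pair these medians were -0.33, 0.13 and -0.08, and 3 of 56 were higher. By the same rule 8 of those 56 were lower in the experiment 1 pair, beside 3 of the 63 in the YPD pair. Genes near the ends thus leaned to the htl1Δ side in YPD but not in experiment 1. Among annotated genes measured in YPGR and the other pair, 111 of 4819 passed 2-fold on the htl1Δ side in YPD. In experiment 1 it was 121 of 4798.

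**Figure D4:**
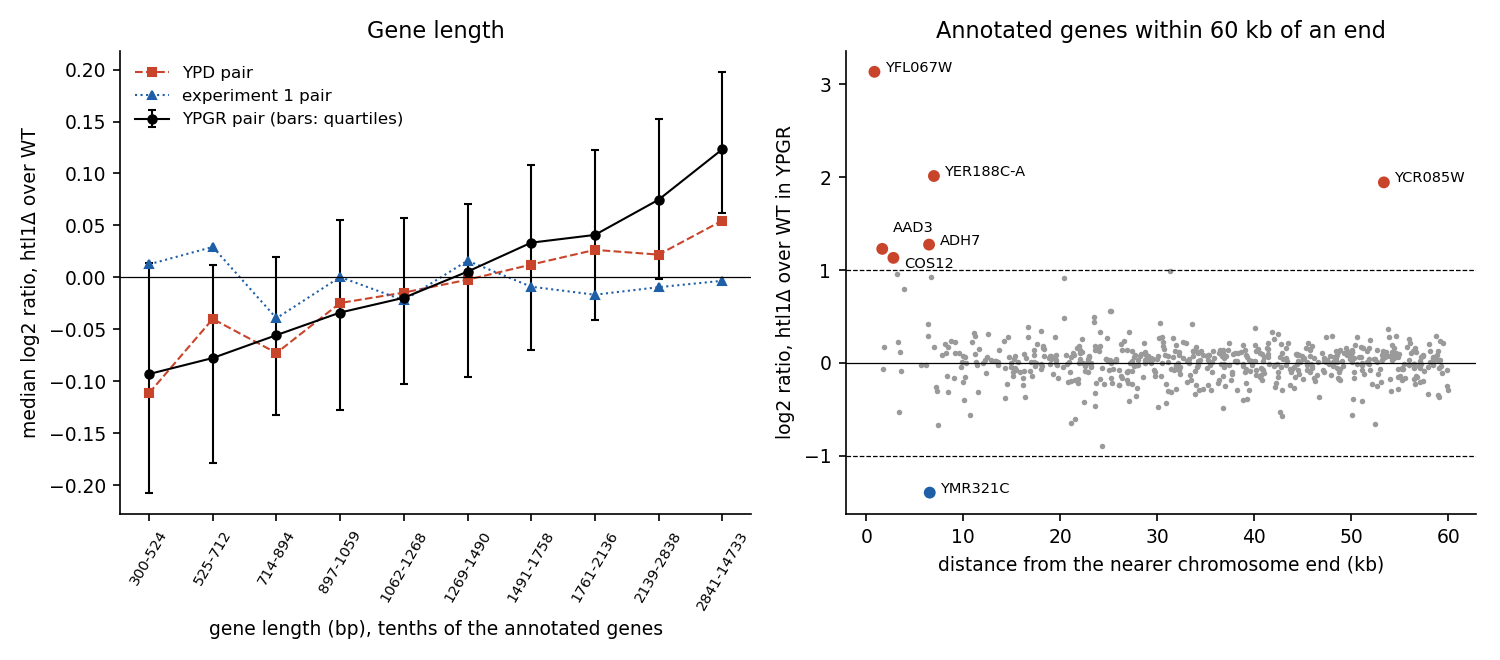
Left, median log2 ratio of htl1Δ over WT for annotated genes in 10 classes of gene length (bp), for the YPGR pair (circles, bars from the lower to the upper quartile), the YPD pair (squares) and the experiment 1 pair (triangles); the YPGR medians run from -0.09 to 0.12. Right, log2 ratio in YPGR against distance from the nearer chromosome end (kb), with genes at least 2-fold different in red (higher in htl1Δ) or blue (lower); 5 of the red genes lie within 15 kb.

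Genes of iron handling differed in both directions. FIT2 (chrXV:1059531-1059992), a cell wall mannoprotein that helps retain iron bound to siderophores, had 712 FPKM in htl1Δ and 358 FPKM in WT, from 1669 and 1046 fragments, with an interval of 1.84 to 2.15. Its ratio of 0.99 fell just short of 2-fold, and in the authors' deposited table its p-value was 5e-05 and its q-value 0.0632. FIT2 was also higher in htl1Δ in the other pairs, with 131 FPKM in htl1Δ and 47.0 FPKM in WT in YPD and with 152 FPKM in htl1Δ and 90.9 FPKM in WT in experiment 1. FIT3, its relative beside it on chromosome XV, had 3187 FPKM in htl1Δ and 2360 FPKM in WT, and the siderophore transporter ARN2 had 73.2 FPKM in htl1Δ and 49.0 FPKM in WT. All 7 siderophore genes measured had ratios above 0, with a median of 0.34, where 49.3% of all genes did. Of the 6 measured in each other pair, 5 were above 0 in YPD, with a median of 0.17, and 2 in experiment 1, with a median of -0.33. The printed FIT2 upstream window holds 3 GCACCC matches, beginning 265, 248 and 131 bases before the start codon, where 4.07% of windows of that size hold any. Of the 16 annotated genes at least 2-fold different, 0 hold it in such a window. Whether the motif goes with the ratio was not tested.

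The reductive iron system did not shift as a group. Its 20 measured genes had a median of 0.01, or -0.01 when centred on genes of similar length, with 11 above 0 and 9 below. FET3, the multicopper ferroxidase, had 147 FPKM in htl1Δ and 113 FPKM in WT, and the permease FTR1 had 123 FPKM in htl1Δ and 109 FPKM in WT. HMX1 (chrXII:552724-553677), the haem oxygenase that frees iron from haem, stood apart from them, with 15.5 FPKM in htl1Δ and 35.7 FPKM in WT. This rests on 106 and 303 fragments and gives an interval of 0.346 to 0.546. In the YPD pair HMX1 had 25.3 FPKM in htl1Δ and 16.0 FPKM in WT.

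HSP12 was lower in htl1Δ in YPGR and higher in htl1Δ in the glucose pairs. HSP12 (chrVI:107256-107585), a small heat shock protein that protects membranes, had 172 FPKM in htl1Δ and 363 FPKM in WT, from 200 and 526 fragments, a 0.474-fold ratio with an interval of 0.401 to 0.559. In the YPD pair it had 592 FPKM in htl1Δ and 73.7 FPKM in WT, and in the experiment 1 pair 622 FPKM in htl1Δ and 44.9 FPKM in WT. The YPGR libraries stood between these extremes. The printed HSP12 window holds 2 CCCCT matches, beginning 232 and 190 bases before the start codon, where 22.2% of windows of that size hold any. Of the 16 annotated genes at least 2-fold different, 3 hold it in such a window. The genes listed under general stress, a list without HSP12, leaned the same way in YPGR: 21 of 26 measured had ratios below 0, with a median of -0.17. DDR2, a stress-induced gene of unknown function, had 2341 FPKM in htl1Δ and 3302 FPKM in WT, and YGP1, a secreted glycoprotein of nutrient limitation, had 669 FPKM in htl1Δ and 911 FPKM in WT. YGP1 had 458 FPKM in htl1Δ and 120 FPKM in WT in the YPD pair, so it too was higher in htl1Δ in glucose medium. Related lists did not share the lean in YPGR. The chaperones, the list that holds HSP12, had 14 of 30 above 0 and 16 below, with a median of -0.02. Centred on genes of similar length, 10 were above 0 and 19 below, with a median of -0.04. Glycogen and trehalose genes had 15 of 20 above 0, or 9 of 20 when so centred.

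Genes of ribosome production were mostly lower in htl1Δ, most of them by less than 2-fold. Of 69 measured genes of ribosome biogenesis, 67 had ratios below 0, with a median of -0.24, and none was 2-fold different. The lowest was UTP15, of the small-subunit processome, with 14.7 FPKM in htl1Δ and 24.1 FPKM in WT. The helicase gene DBP7 had 6.39 FPKM in htl1Δ and 10.6 FPKM in WT, and BFR2 had 19.8 FPKM in htl1Δ and 31.0 FPKM in WT. The highest was UTP10, with 26.0 FPKM in htl1Δ and 23.9 FPKM in WT. Genes of RNA polymerase I, which transcribes ribosomal RNA, had 9 of 11 below 0 and a median of -0.21, where RPA12 had 25.2 FPKM in htl1Δ and 47.5 FPKM in WT, and the large subunit RPA190 had 31.0 FPKM in htl1Δ and 28.9 FPKM in WT. CGR1 (chrVII:440063-440425), needed for processing of ribosomal RNA for the large subunit, was an annotated gene past 2-fold, with 47.5 FPKM in htl1Δ and 110 FPKM in WT, from 69 and 199 fragments and an interval of 0.324 to 0.571. The median of the ribosome biogenesis list was 0.34 in the experiment 1 pair and -0.11 in the YPD pair. Growth rate was not analysed here.

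The ribosomal proteins themselves showed only a small shift that went with gene length. Their medians were -0.07 for 80 genes of the large subunit and -0.05 for 56 of the small. After each ratio was centred on annotated genes of similar length, these medians were -0.00 and 0.01, while that of ribosome biogenesis was -0.28. Gene length and ratio were related over all annotated genes in the YPGR pair, with a Spearman correlation of 0.42 across 4855 genes, which are not independent replicates. The median ratio was -0.09 for genes of 300 to 524 bp, of which 27.1% were above 0, and 0.12 for genes of 2841 to 14733 bp, of which 87.7% were above 0. The Spearman correlation was 0.14 in the YPD pair and -0.03 in the experiment 1 pair. The part of length in the list medians was not tested beyond this centring, and for the lists described below the length-centred value is given where its sign differs or it moved by over 1.5 times.

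Cell wall and sterol genes leaned to the htl1Δ side in YPGR. The TIR and DAN wall mannoproteins, known for expression in cold and low oxygen, had 6 of 7 measured genes above 0 and a median of 0.45. When length-centred, 5 of 7 were above 0 with a median of 0.48. TIR1 had 466 FPKM in htl1Δ and 291 FPKM in WT, and TIR3 had 116 FPKM in htl1Δ and 84.5 FPKM in WT. PAU23, of the related seripauperin family, had 60.9 FPKM in htl1Δ and 40.1 FPKM in WT, and was higher in htl1Δ also in the YPD pair, 52.8 FPKM against 19.5 FPKM in WT, and in the experiment 1 pair, 31.5 FPKM against 15.5 FPKM in WT. The seripauperins measured had 3 of 6 above 0 and a median of -0.02, or 0.07 when length-centred. PAU23 and PAU24 are members of both lists, so the lists are not separate observations. TIR1, the highest of the mannoproteins in YPGR, was lower in htl1Δ in the other pairs, having 134 FPKM in htl1Δ and 240 FPKM in WT in YPD, and 36.2 FPKM in htl1Δ and 340 FPKM in WT in experiment 1. Genes of ergosterol synthesis and its control had 24 of 26 above 0 and a median of 0.12 in YPGR, where the medians were -0.04 in the YPD pair and -0.20 in the experiment 1 pair. Among them UPC2, the sterol-sensing activator, had 72.7 FPKM in htl1Δ and 47.8 FPKM in WT, and ERG3, the sterol desaturase, had 495 FPKM in htl1Δ and 393 FPKM in WT. Cell wall integrity genes had 22 of 25 above 0 with a median of 0.13, or 20 of 25 with a median of 0.07 when length-centred, and other wall genes 22 of 26 with a median of 0.10.

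**Figure D5:**
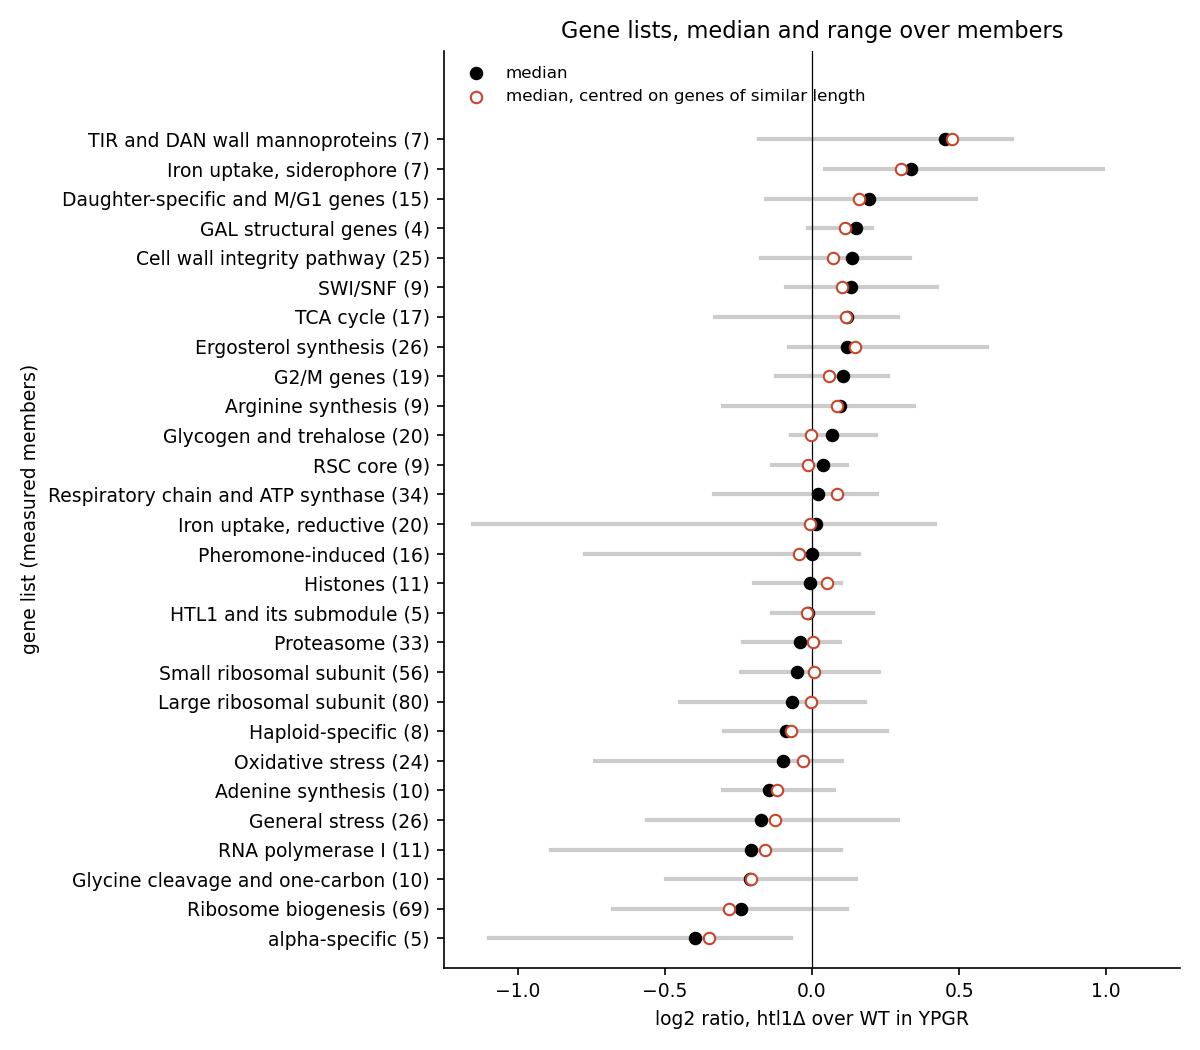
Median log2 ratio of htl1Δ over WT in YPGR for 28 gene lists (black), the same after centring each gene on genes of similar length (open red), and the range from the lowest to the highest member (grey bars), with the number of measured members in brackets. Ribosome biogenesis has a median of -0.24 and siderophore genes one of 0.34, and most list medians lie within 0.2 of 0.

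Metabolic groups were mostly within a narrow band. Genes of the TCA cycle had 14 of 17 above 0 with a median of 0.12, for example MDH1, the mitochondrial malate dehydrogenase, with 1393 FPKM in htl1Δ and 1136 FPKM in WT. Genes of the respiratory chain and ATP synthase had 21 of 34 above 0 with a median of 0.02, and 29 of 34 with a median of 0.09 when length-centred. Glycine cleavage and one-carbon genes had 8 of 10 below 0 with a median of -0.21, GCV1 being lowest with 81.0 FPKM in htl1Δ and 115 FPKM in WT. Adenine synthesis genes had 7 of 10 below 0 with a median of -0.15. Phospholipid and inositol genes had 10 of 20 above 0 with a median of -0.02, or 7 of 20 with a median of -0.07 when length-centred. Among them INO1, the inositol phosphate synthase, had 11.2 FPKM in htl1Δ and 20.1 FPKM in WT, and OPI3, a phospholipid methyltransferase, had 1070 FPKM in htl1Δ and 1401 FPKM in WT. Both were higher in htl1Δ in the other pairs, INO1 with 13.7 FPKM in htl1Δ and 7.95 FPKM in WT in YPD. GPX2, a peroxidase of the oxidative stress response, had 109 FPKM in htl1Δ and 182 FPKM in WT.

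Some groups that differed in the other pairs were closer to level in YPGR. Histone genes had medians of -0.01 in the YPGR pair, or 0.05 when length-centred, -0.71 in the YPD pair and -0.58 in the experiment 1 pair. HHF2, a histone H4 gene, had 4162 FPKM in htl1Δ and 4067 FPKM in WT. The G2/M genes had medians of 0.10 in the YPGR pair, or 0.06 when length-centred, 0.54 in the YPD pair and 0.79 in the experiment 1 pair. Arginine synthesis genes had medians of 0.10 in the YPGR pair, 0.08 in the YPD pair and 1.80 in the experiment 1 pair. Glycogen and trehalose genes had medians of 0.07 in the YPGR pair, or -0.00 when length-centred, -0.04 in the YPD pair and -0.73 in the experiment 1 pair, so that these lists stood away from 0 in experiment 1 and not in YPD. These lists were drawn up with results of the series known, so their contrast between pairs is a description, and the difference between pairs was not tested.

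The alpha-specific genes were lower in htl1Δ although both strains were of the alpha type. All 5 had ratios below 0, with a median of -0.40, or 4 of 5 with a median of -0.35 when length-centred. MF(ALPHA)2 (chrVII:344791-345153), 1 of the genes for alpha-factor, had 169 FPKM in htl1Δ and 362 FPKM in WT, from 245 and 655 fragments and with an interval of 0.401 to 0.541. MF(ALPHA)1 had 1829 FPKM in htl1Δ and 2411 FPKM in WT, and SAG1, the alpha-agglutinin, had 110 FPKM in htl1Δ and 164 FPKM in WT. AFB1, which blocks a-factor, was closest to equal, with 538 FPKM in htl1Δ and 565 FPKM in WT. The a-factor genes MFA1 and MFA2 are too short for a dependable FPKM and pointed in opposite directions. Haploid-specific genes had a median of -0.09.

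The remaining annotated genes past 2-fold had few fragments. PTH4 had 6.23 FPKM in htl1Δ and 17.6 FPKM in WT, from 23 and 81 fragments, with an interval of 0.213 to 0.569. YNL143C had 11.6 FPKM in htl1Δ and 4.19 FPKM in WT, from 20 and 9 fragments. YMR007W had 17.97 FPKM in htl1Δ and 8.45 FPKM in WT, from 29 and 17 fragments, and YCR085W rests on 7 fragments in htl1Δ and 1 in WT. YHR130C, with 11 and 5 fragments, and YPR096C, with 5 in htl1Δ and 14 in WT, have intervals that include 1.

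Set beside the pairs that share no library with it, the YPGR pair shared some of its genes. Of the 12 annotated genes at least 2-fold different in YPGR and also measured in the experiment 1 pair, 3 were at least 2-fold different there (25%), which is 1.35% of the 223 genes that were measured in both pairs and 2-fold different in the experiment 1 pair. Of all 4798 annotated genes measured in both, 4.65% were 2-fold different in the experiment 1 pair. The shared genes were HSP12, MF(ALPHA)2 and YNL143C, and only MF(ALPHA)2 had the same direction. For the YPD pair the corresponding counts were 5 of 15 (33.3%), or 2.81% of 178, where 3.69% of all 4819 genes were 2-fold different in the YPD pair. Those shared with it were YFL067W, COS12, HSP12, MF(ALPHA)2 and YMR007W, 3 of them in the same direction. MF(ALPHA)2 marks mating type, which differs within both other pairs. Without HTL1 and the mating-type, pheromone and marker genes, 2 of 11 were shared with the experiment 1 pair, 0 of them in the same direction. With the YPD pair 4 of 14 were then shared, 2 in the same direction. The shares of all such genes 2-fold different were 4.43% in the experiment 1 pair and 3.36% in the YPD pair. Across annotated genes, ratios in YPGR and in the experiment 1 pair had a Pearson correlation of -0.12 over 4798 genes, and with the YPD pair of 0.07 over 4819 genes. These are correlations across genes, which are not independent replicates.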

How the data were processed

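Polyadenylated RNA was sequenced from 1 culture per strain and medium, 10 libraries in all; the YPGR pair of experiment 2 is described here beside the htl1Δ and WT pairs in YPD and in experiment 1. The authors deposited FPKM per gene, made with TopHat, Cufflinks and Cuffdiff on sacCer3 according to the submitters' processing notes, which name no versions. The deposited p-values and q-values come from Cuffdiff run on 2 single libraries. Values were compared within a table.

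From these FPKM, log2 ratios were computed with a pseudocount of 1 FPKM, which understates differences of low genes. A 2-fold rule of size replaced a test. Of the gene identifiers, 5859 were found in the RefSeq R64 table, 5381 at the same coordinates, and the genes were then restricted to those of at least 300 bp for the annotated set. Fragment numbers were recovered from the steps of low FPKM values, with fragments of a fitted mean of 204 bp and a fitted SD of 80 bp. The low values examined for being whole to within 0.1 numbered 208 in htl1Δ and 177 in WT. Near-identical stretches were sought with blastn in the R64 genome. Named were RSC, GAL, marker, mating-type and HTL1-neighbour genes, the 10 highest and 10 lowest ratios at loci of at least 300 bp and 20 FPKM, the 6 lowest deposited p-values, and per gene list at most 4 members past 2-fold or else the highest and lowest. The 16 annotated genes past 2-fold, and other list members and genes near chromosome ends named in the text, were chosen after their values were seen. The members and the 75 gene lists, 71 of them with at least 4 measured members, were chosen with earlier results of these data known. The annotated set and the centring on gene length are later additions, made after seeing the data. The alternatives were other pseudocounts and filters, other rows, other tables and the deposited p-values. The computations were tested on simulated data. Python 3.11.15, pandas 2.3.3, NumPy 2.4.6, SciPy 1.17.1 and matplotlib 3.10.9 were used.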

Additional observations from a re-analysis of the deposited data

Results flagged for a closer look

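HSP12 differed in direction between pairs of htl1Δ and WT that share no library: its log2 ratio was -1.07 in YPGR, 3.76 in the experiment 1 pair and 2.99 in the YPD pair. YNL143C had 1.28 in YPGR and -1.11 in the experiment 1 pair. COS12 had 1.13 in YPGR and -1.54 in the YPD pair. With 1 library on each side, none of these differences between pairs was tested, and in both pairs grown in YPD the strains also differed in mating type. HSP12 rests on 200 fragments in htl1Δ and 526 in WT in YPGR, YNL143C on 20 in htl1Δ and 9 in WT, and COS12 on 77 in htl1Δ and 38 in WT.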

How the results depend on the processing

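The count of genes at least 2-fold different depends on how low values and hard-to-measure rows are treated. It was 44 higher and 58 lower in htl1Δ as reported, 18 and 34 with a pseudocount of 10 FPKM, 23 higher with a limit of 20 FPKM, 24 and 31 without loci under 300 bp, 9 and 7 for annotated genes alone, and 6 and 9 when joined with a p under 0.05 in the authors' deposited table. For annotated genes, 9 higher and 7 lower as reported, it was 0 and 3 with a pseudocount of 10 FPKM, 1 and 4 with a limit of 20 FPKM, and 5 higher when joined with that p. The first is built into a larger pseudocount, which shrinks the ratios of low genes. The remaining settings kept each count within 1.5 times of its value. The number of lists with a median of at least 0.2 either way was 8, and 6 to 9 under the alternatives run. No ratio or list median that had been past its limit changed sign under any setting run. Centring on genes of similar length put 19 of 71 list medians on the other side of 0, and 0 to 2 under each of the other settings. No paired analysis was possible because each strain and medium has 1 library. Depth limits the low genes: 1 fragment on 300 bp is worth 1.10 FPKM in htl1Δ and 0.88 FPKM in WT.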
